A study of Homo sapiens with 15 samples.

Results

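MALAT1, NEAT1, KCNQ1OT1, H19 and NORAD are 5 long noncoding RNAs, transcripts that act as RNA and are not translated into protein. They were taken by gene symbol from the count matrix, in which each has 1 row. They are 5 of the 41412 rows, and all 5 passed the filter on low counts that left 18380 genes for testing.

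The RNA came from HepG2 cells, an established human cell line grown from a liver tumour, recorded as wild type. Cells of 4 groups received 1 µg of mRNA for the fluorescent protein eGFP in lipid particles (NanoLNP reagent) and were harvested 48 h later. One group received non-cloaked mRNA. The weak-cloaked mRNA had been treated with 0.1 M CR-3 for 0.5 h at 25 °C, the medium-cloaked mRNA with 0.5 M for 1 h at 30 °C, and the strong-cloaked mRNA with 1 M for 2 h at 37 °C. The fifth group was left untransfected. Each group had 3 biological replicates, so 12 libraries were transfected and 3 were not. The untransfected cells received neither particles nor mRNA, so the parts played by the carrier and by the cargo cannot be told apart. Concentration, time and temperature of the CR-3 treatment changed together, so they cannot be told apart either.

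The libraries were made from poly(A)-selected RNA and held 57128519 to 78548789 counts. Marker genes of hepatocyte lines summed to between 18100 and 24300 CPM, the count of a gene scaled to a common library size, in every library, and markers of other epithelial lines to at most 12.7 CPM. The leukocyte markers summed to 879 to 1540 CPM, nearly all of it lysozyme (LYZ), which averaged 1280 CPM in untransfected cells. Of those 10 markers, 8 passed the filter on low counts. The others, PTPRC and MS4A1, had at most 8 counts in any library. Stromal and endothelial markers summed to 19.9 to 67.2 CPM. On the first principal component, which held 21.1% of the variance, the 3 untransfected libraries lay between -70.5 and -68.6. Replicate 1 of the weak-cloaked group lay at -51.6, and the other 11 transfected libraries between -7.8 and 44.1. Results that this library changes are given with and without it. Because fewer cells of a type and less RNA per cell look alike in bulk RNA, every level here is a share of the library.

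The 5 RNAs do different work. MALAT1 collects in nuclear speckles, the nuclear bodies rich in splicing factors. NEAT1 is the scaffold around which paraspeckles assemble, and it is made as a short polyadenylated form and a long form. KCNQ1OT1 is transcribed from the paternal chromosome inside the KCNQ1 gene, antisense to it, and silences imprinted neighbours in cis. H19 is the maternally expressed partner of IGF2, is plentiful in fetal liver and falls after birth, and is the precursor of the microRNA miR-675. NORAD is mainly cytoplasmic and binds PUM2, an RNA-binding protein that represses mRNAs to which it binds.

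Their 3′ ends bear on what poly(A) selection captures, so those that differ most are shown here. MALAT1 is cut by RNase P, which releases a small tRNA-like RNA and leaves an A-rich end held in a triple helix in place of a poly(A) tail, and long NEAT1 is finished in the same way. In the sequences below, from the GENCODE 29 transcripts on GRCh38 and written 5′ to 3′, capitals mark the A-rich run in MALAT1 and NEAT1 and the poly(A) signal AATAAA in H19 and NORAD.
MALAT1, before the RNase P site, chr11:65506037-65506116, plus strand: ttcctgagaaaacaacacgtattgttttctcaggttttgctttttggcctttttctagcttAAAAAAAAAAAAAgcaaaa
MALAT1, the tRNA-like RNA that follows, chr11:65506117-65506173, plus strand: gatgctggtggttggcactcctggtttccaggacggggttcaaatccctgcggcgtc
NEAT1, end of the long form, chr11:65445481-65445540, plus strand: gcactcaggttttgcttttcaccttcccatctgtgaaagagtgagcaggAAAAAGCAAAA
H19, chr11:1995176-1995235, minus strand: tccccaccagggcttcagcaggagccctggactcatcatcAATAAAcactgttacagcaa
NORAD, chr20:36045622-36045681, minus strand: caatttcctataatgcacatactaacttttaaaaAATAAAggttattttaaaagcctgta
The letters AATAAA stood in the last 50 bases of the longest annotated MALAT1, H19 and NORAD transcripts, as in 57.5% of 18291 transcripts of tested genes searched on the transcript strand, and not in those of long NEAT1 or KCNQ1OT1. In KCNQ1OT1 they stood farther from the end, within the last 100 bases. In MALAT1 this signal lies past the RNase P site. The counts therefore measure the polyadenylated or A-rich part of each RNA pool, and the part of the MALAT1 and NEAT1 pools that was not captured is not measured here.

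In untransfected cells the 5 RNAs covered almost the whole range of lncRNA levels. Levels between genes were compared as CPM, scaled by the trimmed mean of M values (TMM), per kilobase of the longest annotated transcript. NORAD stood at 60.7 ± 22.4 CPM per kb (SD, n = 3), rank 9 among the 1752 tested lncRNA genes, and H19 at 21.5 ± 3.45 CPM per kb, rank 18. MALAT1 (0.973 ± 0.33 CPM per kb) and NEAT1 (0.947 ± 0.845 CPM per kb) ranked 462 and 472. KCNQ1OT1, at 0.0323 ± 0.00821 CPM per kb, ranked 1667. Against all 18308 tested genes with a length, NORAD was above 94.8%, H19 above 86.2%, MALAT1 above 38.4%, NEAT1 above 38% and KCNQ1OT1 above 3.29%. By this measure the description of these RNAs as abundant held for NORAD and H19, and it was not borne out for the other 3 in the RNA captured here. By CPM without division by length, NORAD ranked 2, H19 18, NEAT1 38, MALAT1 101 and KCNQ1OT1 282 among the same lncRNA genes, so the order depends on the transcript that a level is divided by. With the 3441-nt short form of NEAT1 in place of the 22743-nt long form, its level would be 6.26 CPM per kb, and KCNQ1OT1 is annotated as a single exon of 91667 nt, the 3rd longest transcript among the tested genes.

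**Figure D1:**
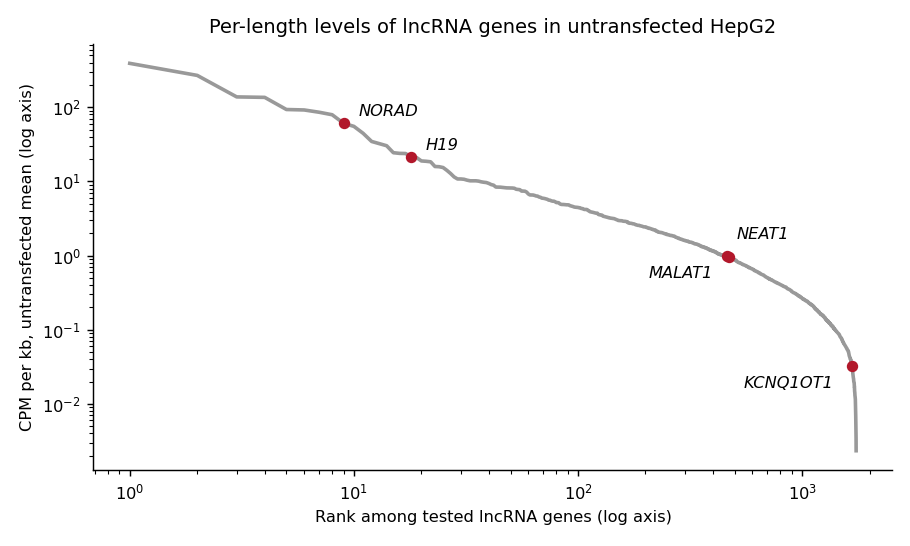
Mean level per kilobase in the 3 untransfected libraries (TMM CPM per kb of the longest transcript, log axis) against rank (log axis) for 1752 tested lncRNA genes. Red points mark the 5 RNAs: NORAD (60.7) and H19 (21.5) lie near the top, MALAT1 and NEAT1 lie together just under 1, and KCNQ1OT1 (0.0323) lies near the bottom.

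H19 rose in transfected cells, in every group. Its gene (ENSG00000130600.18) lies at chr11:1995176-2001470 on the minus strand of GRCh38. The 3 libraries had 72.9, 90.5 and 80.6 TMM CPM with non-cloaked mRNA, 76.1, 96.0 and 107 with weak-cloaked mRNA, 79.7, 81.3 and 76.6 with medium-cloaked mRNA, and 107, 123 and 88.1 with strong-cloaked mRNA. Untransfected cells had 45.0, 59.8 and 46.8 TMM CPM. All 12 transfected libraries lay above all 3 untransfected ones, as was so for 5.12% of the genes tested. The mean of the 4 transfected groups was 1.77-fold higher than untransfected cells (log2 fold change 0.82 ± 0.13 SE, edgeR quasi-likelihood test, Benjamini-Hochberg adjusted p = 0.0018), the 275th smallest p of 18380.

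H19 was called, at an adjusted p below 0.05, in each of the 4 transfected groups against untransfected cells. The log2 fold changes were 0.69 ± 0.16 with non-cloaked mRNA (edgeR adjusted p = 0.03), 0.88 ± 0.16 with weak-cloaked mRNA (0.013), 0.65 ± 0.16 with medium-cloaked mRNA (0.02) and 1.07 ± 0.16 with strong-cloaked mRNA (0.0027), each with its SE. The genes called in those comparisons were 6.5%, 3.29%, 13.7% and 15.1% of all tested genes, and the 4 comparisons share the same 3 untransfected libraries. The strong-cloaked call held without any 1 library, with adjusted p at most 0.016. The other 3 calls were lost without single libraries, although the fold change stayed between 0.58 and 1.02 on the log2 scale. For non-cloaked mRNA these were untransfected replicate 1 or 3 (edgeR adjusted p = 0.078 and 0.08) and non-cloaked replicate 2 or 3 (0.12 and 0.088). For weak-cloaked mRNA they were untransfected replicate 1 (0.063) and weak-cloaked replicate 2 or 3 (0.059 and 0.067), and for medium-cloaked mRNA untransfected replicate 1 (0.071) and each medium-cloaked replicate (0.054 to 0.069). Scaling by total counts also ended the non-cloaked and medium-cloaked calls (log2 fold changes 0.48 and 0.41, edgeR adjusted p = 0.059 and 0.064), correction for length and GC ended the non-cloaked call (0.44, 0.074), and a fit of only the groups compared ended the weak-cloaked call (0.90, 0.22).

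The microRNA precursor MIR675 is encoded within H19, at chr11:1996759-1996831 on the same strand. Its mature products, from RefSeq (GRCh38.p14), are shown with the seed, bases 2 to 8, in capitals, because the seed sets which mRNAs a microRNA binds; the 2 arms have different seeds.
hsa-miR-675-5p: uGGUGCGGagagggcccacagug
hsa-miR-675-3p: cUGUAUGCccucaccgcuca
The MIR675 row is not a measure of the mature microRNA, since poly(A)-selected libraries do not hold RNAs of that size, and its reads cannot be told apart from H19 reads. It held 44 to 98 counts in transfected libraries and 35 to 56 in untransfected libraries, with a log2 fold change of 0.76 ± 0.21 SE (edgeR adjusted p = 0.022).

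IGF2, the growth factor gene that shares enhancers with H19 and is expressed from the other parental chromosome, rose as well. It had 4780 to 9050 TMM CPM in the 12 transfected libraries and 3410 to 4630 in the 3 untransfected libraries. All transfected libraries lay above all untransfected ones, as was so for 5.12% of the genes tested. The log2 fold change was 0.72 ± 0.15 SE (edgeR adjusted p = 0.0067). By group, IGF2 was called with weak-cloaked (0.89 ± 0.19, edgeR adjusted p = 0.024) and strong-cloaked mRNA (0.98 ± 0.19, 0.0087). It was not called with non-cloaked (0.45 ± 0.19, 0.14) or medium-cloaked mRNA (0.56 ± 0.19, 0.063). Counted against IGF2 within each library, H19 gave 1.06 to 1.82 counts per 100 IGF2 counts in transfected cells and 0.97 to 1.63 in untransfected cells. These ranges overlapped for most of their length.

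**Figure D2:**
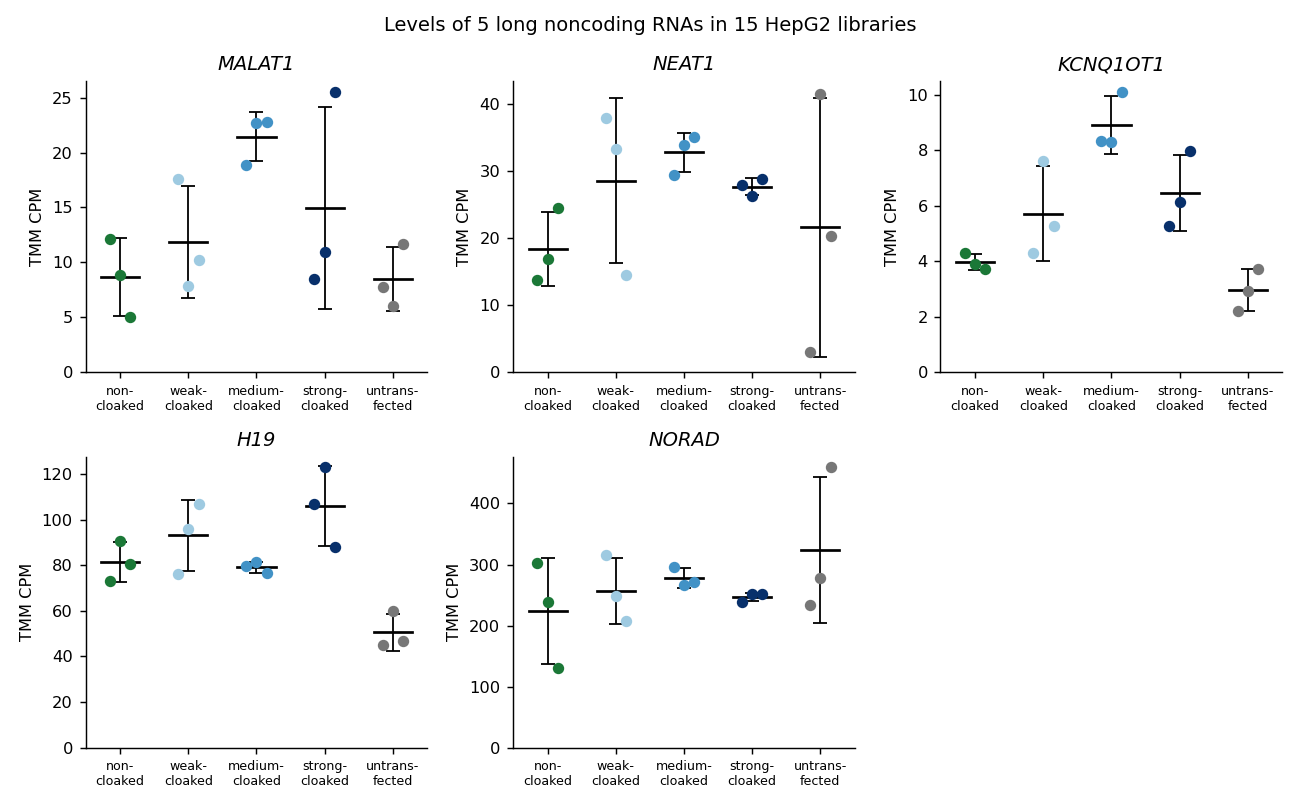
TMM CPM of each of the 5 RNAs in the 15 libraries, by group (points, 3 biological replicates each; horizontal line, mean; bars, SD). H19 lies at 72.9 or higher in every transfected library and at 59.8 or lower in untransfected ones, KCNQ1OT1 is highest with medium-cloaked mRNA, and the 3 untransfected libraries are far apart for NEAT1 (3.01 to 41.4).

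KCNQ1OT1 rose in transfected cells, most of all with medium-cloaked mRNA. Its gene (ENSG00000269821.1) lies at chr11:2608328-2699994 on the minus strand. The libraries had 4.30, 3.89 and 3.72 TMM CPM with non-cloaked mRNA, 4.28, 7.62 and 5.25 with weak-cloaked mRNA, 8.32, 8.28 and 10.1 with medium-cloaked mRNA, and 5.28, 6.13 and 7.97 with strong-cloaked mRNA. Untransfected cells had 2.21, 2.94 and 3.72. All 12 transfected libraries ranked above the untransfected ones, but the lowest non-cloaked library and the highest untransfected one were equal to 3 digits. Every transfected library lay above in 5.12% of the genes tested. The mean of the transfected groups was 2.03-fold higher (log2 fold change 1.02 ± 0.21 SE, 95% interval 0.57 to 1.47, edgeR adjusted p = 0.0057).

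By group, KCNQ1OT1 was called with medium-cloaked mRNA (log2 fold change 1.59 ± 0.25 SE, a 3-fold level, edgeR adjusted p = 0.0039) and with strong-cloaked mRNA (1.13 ± 0.25, 0.014). With weak-cloaked mRNA the log2 fold change was 0.95 ± 0.25 (edgeR adjusted p = 0.054), and with non-cloaked mRNA 0.43 ± 0.25 (0.29). The weak-cloaked comparison depended on the library that stood apart: without weak-cloaked replicate 1 the log2 fold change was 1.12 and the edgeR adjusted p 0.0084. It also passed in DESeq2 (adjusted p = 0.0069), with a filter of 50 counts (edgeR, 0.046) and with correction for length and GC (1.26, 0.03), a correction that with a replicate block also brought the non-cloaked comparison past the threshold (1.07, 0.026). The strong-cloaked call was lost without untransfected replicate 1 (edgeR adjusted p = 0.054), untransfected replicate 2 (0.052) or strong-cloaked replicate 3 (0.061). The medium-cloaked call held without any 1 library, with adjusted p at most 0.023.

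KCNQ1OT1 was higher in the medium- and strong-cloaked groups than in the non-cloaked group, in edgeR at an unadjusted p only. All 3 medium-cloaked libraries (8.28 to 10.1 TMM CPM) lay above all 3 non-cloaked ones (3.72 to 4.30), as did the libraries of 10.9% of genes, and the log2 fold change was 1.16 ± 0.25 SE. That was the 12th smallest p of 18380 (edgeR unadjusted p = 0.00041), with an adjusted p of 0.46, so it was not called. edgeR called 0 genes in that comparison and had 9.5% of genes below an unadjusted p of 0.05. DESeq2 called 68 genes there, among them KCNQ1OT1 at a log2 fold change of 1.17 and an adjusted p of 0.011. With correction for length and GC the log2 difference was 0.68 (edgeR unadjusted p = 0.038, adjusted p = 0.69). The other tests of cloaking for this gene were not called by either tool: strong-cloaked against non-cloaked gave a log2 fold change of 0.70 ± 0.25 SE and weak-cloaked against non-cloaked 0.53 ± 0.25 (edgeR unadjusted p = 0.014 and 0.053, adjusted p = 1 and 0.97). With correction for length and GC these were 0.46 and 0.21, and the weak-cloaked difference was 0.26 without weak-cloaked replicate 2 and 0.70 without weak-cloaked replicate 1. The mean of the 3 cloaked groups lay 0.80 ± 0.21 SE above the non-cloaked group on the log2 scale, with 8 of 9 cloaked libraries above all non-cloaked ones (edgeR unadjusted p = 0.0022, adjusted p = 0.74), and 0.45 with correction for length and GC (0.091 and 0.82). Over the 4 transfected groups, a test for any difference gave F = 7.43 (edgeR adjusted p = 0.99, unadjusted p = 0.0035).

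KCNQ1, the potassium channel gene whose body holds KCNQ1OT1 on the opposite strand, was low and was not called. It had 0.919 to 1.96 TMM CPM in transfected libraries and 0.985 to 1.21 in untransfected libraries (log2 fold change 0.27 ± 0.23 SE, edgeR adjusted p = 0.42). KCNQ1OT1 counts were 2.51 to 9.38 times those of KCNQ1 in transfected libraries and 2.25 to 3.30 times in untransfected libraries. The libraries were strand-specific, but whether the counting used strand is not given in the sources used here, so reads from this antisense pair may be shared between their rows.

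The imprinted cluster of 11p15, to which H19 and KCNQ1OT1 belong, had 12 tested genes of 16 listed besides these 2. Of these, 3 rose and 0 fell in transfected cells, against 10.4% of all genes called higher and 12.7% called lower, and their median log2 fold change was 0.27 against -0.05 over all genes. The 3 were IGF2, the transporter gene SLC22A18 (log2 fold change 1.65 ± 0.33 SE, edgeR adjusted p = 0.0048) and PHLDA2, which limits placental growth (0.62 ± 0.16, 0.017). SLC22A18 was low, with a mean of 1.49 TMM CPM in untransfected cells. CDKN1C, a cell-cycle inhibitor, stood at 0.27 ± 0.31 (edgeR adjusted p = 0.58). CDKN1C was low too, with a mean of 0.906 TMM CPM in untransfected cells. The rest were not called in the mean of the transfected groups. NAP1L4 stood at a log2 fold change of 0.60 and TSPAN32 at 1.37, from a mean of 0.066 TMM CPM in untransfected cells. OSBPL5 stood at 0.22, CD81 at -0.01, SLC22A18AS at -0.09, CARS1 at -0.28, TSSC4 at -0.30 and KCNQ1 as above. With medium-cloaked mRNA alone, 1 of the 12 was called higher and 1 lower, or 8.33% each. Over all genes these shares were 6.25% and 7.49%. The lower one was TSSC4 (-0.78 ± 0.23 SE, edgeR adjusted p = 0.043). INS, ASCL2, TRPM5 and KCNQ1DN had at most 23 counts in a library and were not tested. At other imprinted loci 12 of 16 listed genes were tested, and 2 fell: PEG10 (log2 fold change -1.15 ± 0.18 SE, edgeR adjusted p = 0.0018) and PEG3 (-0.91 ± 0.21, 0.01), a retrotransposon-derived gene and a zinc-finger gene.

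**Figure D3:**
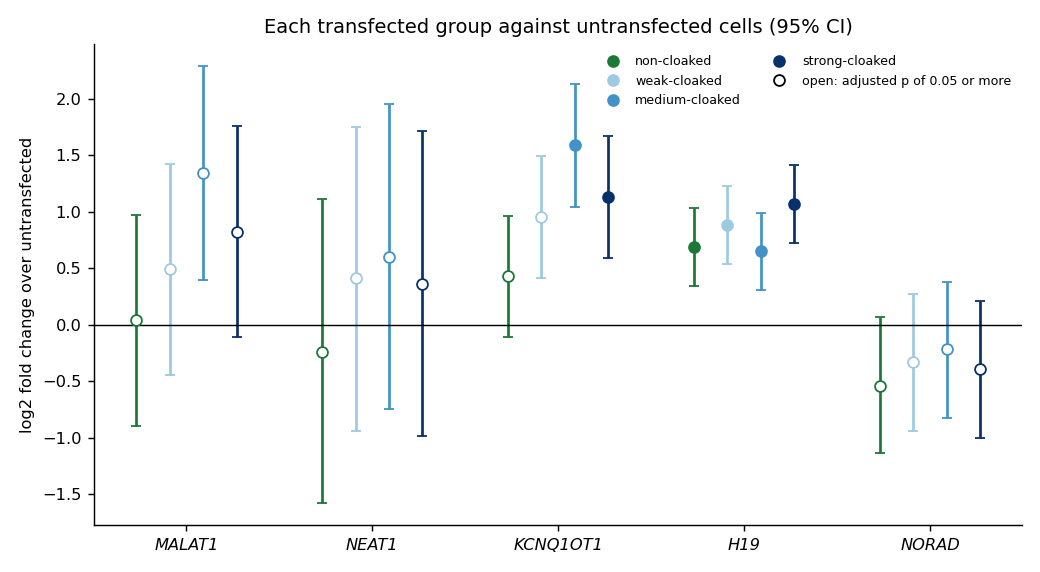
Log2 fold change of each transfected group over untransfected cells for the 5 RNAs (points; bars, 95% confidence intervals from the edgeR fit; filled points, adjusted p below 0.05). The 4 H19 points and the medium- and strong-cloaked KCNQ1OT1 points are filled, the intervals of NEAT1 all span 0, and the 4 NORAD points lie below 0 with intervals that reach above it.

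MALAT1 had its highest mean with medium-cloaked mRNA, and no comparison of it was called in the edgeR fit of all libraries with TMM scaling. Its gene (ENSG00000251562.8) lies at chr11:65497688-65506516 on the plus strand. The libraries had 12.1, 8.88 and 5.04 TMM CPM with non-cloaked mRNA, 17.6, 7.80 and 10.2 with weak-cloaked mRNA, 18.9, 22.7 and 22.8 with medium-cloaked mRNA, and 8.49, 10.9 and 25.5 with strong-cloaked mRNA. Untransfected cells had 7.71, 6.05 and 11.7. The medium-cloaked libraries lay close together and above all untransfected ones, as did those of 19.2% of genes. They also lay above all non-cloaked ones, as did those of 10.9% of genes. The strong-cloaked libraries were spread 3.01-fold, and 1 of them exceeded every medium-cloaked library. Against untransfected cells the log2 fold change was 1.34 ± 0.44 SE with medium-cloaked mRNA (edgeR adjusted p = 0.059), 0.82 ± 0.43 with strong-cloaked mRNA (0.21), 0.49 ± 0.43 with weak-cloaked mRNA (0.54) and 0.04 ± 0.43 with non-cloaked mRNA (0.97). The weak-cloaked value was 0.08 without weak-cloaked replicate 1 (edgeR adjusted p = 0.93). The mean of the transfected groups stood 0.67 ± 0.36 SE above untransfected cells (edgeR adjusted p = 0.19), with 6 of 12 transfected libraries above all untransfected ones.

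The medium-cloaked MALAT1 value was near the threshold. It passed in 6 of 25 alternatives and was not called in the other 19. It passed without weak-cloaked replicate 1 (edgeR adjusted p = 0.041), without strong-cloaked replicate 3 (0.031) and in DESeq2 (0.013). A fit of only the groups compared (edgeR, 0.014) and correction for length and GC, with or without a replicate block, also passed it. With 1 library left out the edgeR adjusted p reached 0.18. Medium-cloaked against non-cloaked mRNA gave a log2 fold change of 1.30 ± 0.44 SE (edgeR unadjusted p = 0.011, adjusted p = 0.47), and the mean of the cloaked groups against non-cloaked mRNA 0.85 ± 0.37 (0.04 and 0.74). Without strong-cloaked replicate 3, the strong-cloaked group stood only 0.20 above untransfected cells on the log2 scale, against 0.82 with it.

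Transcript length and GC content moved with these results. In transfected cells the median log2 fold change was -0.25 over genes with transcripts of 7168 nt or more and -0.30 over the genes of lowest GC content, up to 42.8%, against -0.05 over all genes. The longest MALAT1 transcript has 8708 nt and the gene 40.3% GC. With each library corrected for the trend over length and GC, the mean MALAT1 change was 1.03 ± 0.30 SE on the log2 scale and was called (edgeR adjusted p = 0.025), as were the medium-cloaked (1.61, 0.01) and strong-cloaked (1.24, 0.035) comparisons, and the pooled NORAD value was -0.07. The part of length and GC in these differences was not tested. An antisense transcript, TALAM1, overlaps 81.6% of the MALAT1 gene in RefSeq (GRCh38.p14). It had 0 to 128 counts per library in transfected cells and 0 to 66 in untransfected cells, where MALAT1 had 295 to 1658 and 529 to 1003. Non-cloaked replicate 2 had 128 TALAM1 against 649 MALAT1 counts, and untransfected replicate 2 had 66 against 529. Several other libraries had 0 TALAM1 counts. The 2 genes may share reads if strand was not used.

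NEAT1, the most variable of the 5 in untransfected cells, was not called in any comparison. The gene (ENSG00000245532.8) lies at chr11:65422774-65445540 on the plus strand, 52148 nt from MALAT1. The libraries had 13.7, 16.8 and 24.4 TMM CPM with non-cloaked mRNA, 37.8, 33.3 and 14.5 with weak-cloaked mRNA, 29.4, 33.8 and 35.0 with medium-cloaked mRNA, and 27.9, 26.2 and 28.8 with strong-cloaked mRNA. Untransfected cells had 3.01, 41.4 and 20.2, from 248, 3616 and 1742 counts. Those 3 libraries differed 13.7-fold, beyond counting error, and of 13707 genes that reached 100 counts in at least 1 of them, only 135 varied as much or more. By contrast, the strong-cloaked libraries varied 1.1-fold and the medium-cloaked ones 1.19-fold.

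The mean NEAT1 level of the transfected groups stood 0.28 ± 0.50 SE above untransfected cells on the log2 scale, with a 95% interval of -0.80 to 1.37 (edgeR adjusted p = 0.73). Its sign depended on single untransfected libraries: the value was -0.24 without replicate 1 and 1.17 without replicate 2, neither called (adjusted p = 0.66 and 0.18). All 3 medium-cloaked and all 3 strong-cloaked libraries lay above all 3 non-cloaked ones, as did those of 10.9% and 4.84% of genes. The log2 fold changes were 0.84 ± 0.62 SE for medium-cloaked and 0.60 ± 0.62 for strong-cloaked against non-cloaked mRNA (edgeR adjusted p = 0.71 and 1).

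Genes for proteins of these nuclear bodies were called in both directions, against a background of 10.4% higher and 12.7% lower over the whole table. Of 25 genes for paraspeckle proteins, all tested, 1 rose and 7 fell in transfected cells, or 4% and 28%, with a median log2 fold change of -0.24 against -0.05 over all genes. Among those that fell were CPSF6, a pre-mRNA cleavage factor subunit (log2 fold change -0.98 ± 0.17 SE, edgeR adjusted p = 0.0023), PSPC1, a core paraspeckle protein (-0.66 ± 0.12, 0.0034), and RBM4B, an RNA-binding protein (-0.70 ± 0.16, 0.0088). DAZAP1 rose by 0.39 ± 0.11 (0.023). Of 24 nuclear speckle genes, all tested, 3 rose and 10 fell, or 12.5% and 41.7%, with a median of -0.15. The splicing factor SRSF1 stood at -1.31 ± 0.21 (edgeR adjusted p = 0.0019), SRSF6 at -0.56 ± 0.12 (0.0067), SRSF4 at 0.56 ± 0.11 (0.0057) and PNN, which encodes a splicing-associated protein, at 0.79 ± 0.17 (0.0066).

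Of 35 genes that trim, cut or degrade nuclear RNA 1 rose and 8 fell, or 2.86% and 22.9%, against 10.4% and 12.7% of all genes. In both directions together 25.7% were called, near the 23.1% of all genes, with a median log2 fold change of -0.24. The largest change by p was in ZCCHC8, a subunit of the complex that delivers nuclear RNA to the exosome (-1.89 ± 0.32 SE, edgeR adjusted p = 0.0023). CPSF3, the endonuclease of poly(A) site cleavage, stood at -0.69 ± 0.14 (0.0047), and RPP40, an RNase P subunit, at -0.58 ± 0.14 (0.011). EXOSC7, an exosome subunit, rose by 0.38 ± 0.10 (0.016).

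**Figure D4:**
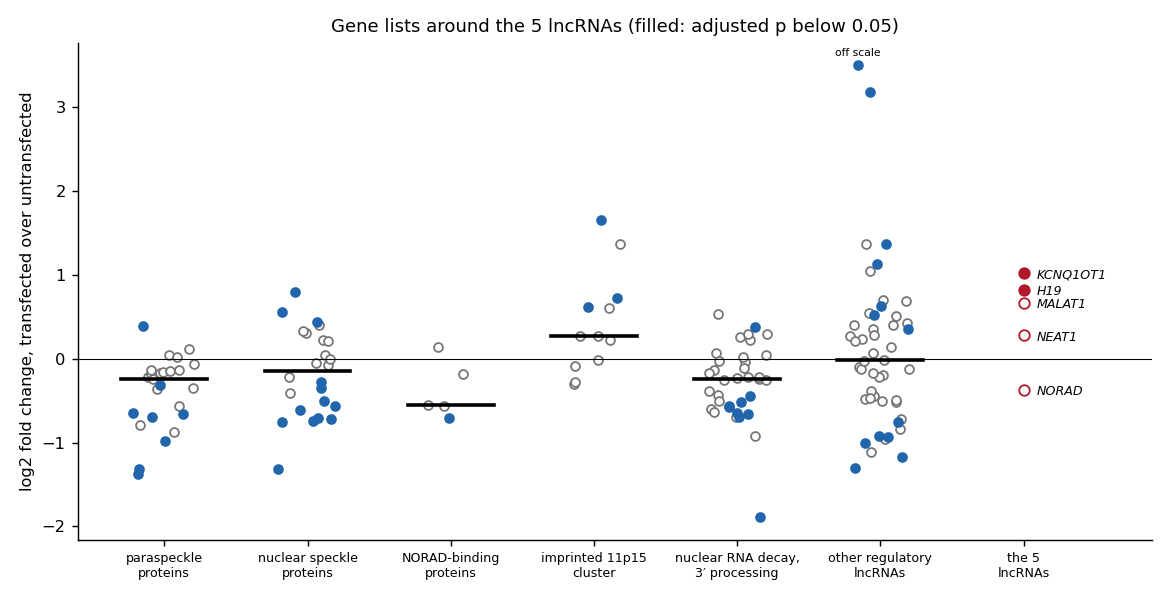
Log2 fold change of transfected over untransfected cells for the tested genes of 6 lists and for the 5 RNAs (points; filled, adjusted p below 0.05; horizontal lines, list medians, none for the 5 RNAs; 1 lncRNA above 3.5 is drawn at the edge and marked off scale). The paraspeckle and RNA decay lists have medians of -0.24, the imprinted 11p15 list has a median of 0.27 and 3 filled points above 0, and KCNQ1OT1 and H19 are filled among the 5 RNAs.

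NORAD, the most abundant of the 5, was not called in any comparison. Its gene (ENSG00000260032.1) is a single exon at chr20:36045622-36050960 on the minus strand. The libraries had 302, 238 and 130 TMM CPM with non-cloaked mRNA, 315, 248 and 208 with weak-cloaked mRNA, 296, 266 and 272 with medium-cloaked mRNA, and 239, 251 and 251 with strong-cloaked mRNA. Untransfected cells had 234, 278 and 460. The groups overlapped, and the widest values were the lowest non-cloaked and the highest untransfected library. The mean of the transfected groups stood -0.37 ± 0.22 SE from untransfected cells on the log2 scale (95% interval -0.84 to 0.09, edgeR adjusted p = 0.24). Without untransfected replicate 3 the value was -0.04. Against untransfected cells the 4 groups stood at -0.54 (non-cloaked), -0.33 (weak-cloaked), -0.22 (medium-cloaked) and -0.39 (strong-cloaked), each with an SE of 0.28.

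The NORAD transcript is built of repeats that carry Pumilio motifs, which are shown because PUM2 binds them. The letters TGTANATA, searched on the transcript strand, occurred 15 times in its 5339 nt, or 2.81 times per kb. Only 4 tested genes had more copies, only 2 of 16630 transcripts of 1000 nt or more were denser, and 28.5% of transcripts had at least 1 copy. KCNQ1OT1 had 9 copies, NEAT1 had 6, and MALAT1 and H19 had 0. In 4 stretches of 30 bases from NORAD (GENCODE 29, GRCh38, minus strand), capitals mark the motif.
NORAD, chr20:36049800-36049829: cactactgTGTATATAgttgacaatgctaa
NORAD, chr20:36048901-36048930: ttttgctcTGTATATAgtatatataatgga
NORAD, chr20:36047968-36047997: ccctactgTGTATATAgcggacaaacttaa
NORAD, chr20:36046341-36046370: agcctattTGTAAATAcctttgttataatt

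Across the 5 RNAs, then, 2 were called in transfected against untransfected cells, both higher, where 23.1% of all tested genes were called and 10.4% were called higher. The 2 stayed the same without any 1 of the 15 libraries, the weak-cloaked library that stood apart included. Scaling by total counts in place of TMM shifted the median log2 fold change of all genes by -0.23 and lowered the share of higher genes among those called to 17.8%, against 44.9% with TMM. On that scale H19 stood at 0.59 ± 0.12 SE and KCNQ1OT1 at 0.79 ± 0.20, both still called (edgeR adjusted p = 0.0041 and 0.011), and NORAD stood at -0.59 ± 0.23 (0.077). Among all 1752 tested lncRNA genes 76 rose and 156 fell, with a median of -0.15.

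**Figure D5:**
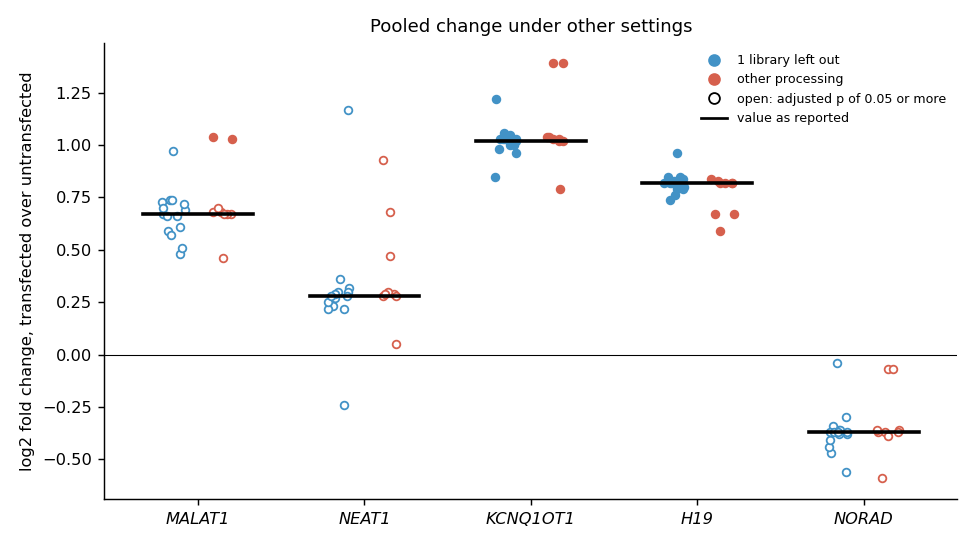
Log2 fold change of transfected over untransfected cells for the 5 RNAs as reported (black line), with 1 library left out (blue) and with other processing (red); filled points have an adjusted p below 0.05. All KCNQ1OT1 points (0.79 to 1.39) and H19 points (0.59 to 0.96) are filled and above 0, MALAT1 is filled only with length and GC correction (1.03 and 1.04), and NEAT1 runs from -0.24 to 1.17.

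Of 53 other regulatory lncRNAs listed, 48 were tested, and 7 rose and 6 fell in transfected cells. The 27.1% called was near the 23.1% of all genes, with a median log2 fold change of -0.02. CYTOR rose by 1.37 ± 0.14 SE (edgeR adjusted p = 0.00020) and MIR4435-2HG, a near-identical copy of it on the same chromosome with which it can share reads, by 1.13 ± 0.13 (0.00033). ZFAS1, a small nucleolar RNA host gene, rose by 0.63 ± 0.10 (0.0014), and LINC00665 stood at -1.0 ± 0.17 (0.0021).

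Cloaking itself produced no call among the 5 RNAs in edgeR. Over all genes, edgeR called 1 gene, or 0.00544%, in weak-cloaked against non-cloaked, in strong-cloaked against weak-cloaked and in the test over the 4 transfected groups, and 0 in medium- or strong-cloaked against non-cloaked mRNA, where 9.5% and 3.61% had an unadjusted p below 0.05 and DESeq2 called 68 and 15. In the mean of the 3 cloaked groups against non-cloaked mRNA, edgeR called 0 genes and had 6.7% of genes below an unadjusted p of 0.05, and DESeq2 called 18. H19 stood 0.18 ± 0.13 SE above the non-cloaked group, NORAD 0.22 ± 0.23 and NEAT1 0.69 ± 0.53 on the log2 scale (edgeR adjusted p = 0.81, 0.87 and 0.82). Strong-cloaked against weak-cloaked mRNA differed by -0.06 to 0.33 on the log2 scale in the 5 RNAs. The 95% intervals of that difference were -0.16 to 0.53 for H19 and -0.36 to 0.71 for KCNQ1OT1. H19 was the only one of the 5 with its highest mean in the strong-cloaked group, at 106 ± 17.2 TMM CPM against 81.4 ± 8.83 with non-cloaked mRNA (SD, n = 3 each), a log2 difference of 0.38 ± 0.16 SE (edgeR unadjusted p = 0.031, adjusted p = 1). The highest mean of MALAT1, NEAT1 and KCNQ1OT1 was in the medium-cloaked group. For MALAT1 and NEAT1 those libraries overlapped with the group with the next highest mean. For KCNQ1OT1 the lowest medium-cloaked library had 8.28 TMM CPM and the highest strong-cloaked one 7.97. That difference was not tested, and the share of all genes so separated was not counted.

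Across the 12 transfected libraries, of the 10 pairs that the 5 RNAs form, none passed Benjamini-Hochberg adjustment over the 10 (permutation test of 100000 resamples, two-sided). Libraries were permuted without regard to treatment group, so differences between group means enter these values along with variation between replicates. The closest was MALAT1 with NORAD, with Pearson r = 0.69 (permutation p = 0.0064, adjusted 0.064), Spearman rho = 0.68 (permutation p = 0.017, adjusted 0.079), and r = 0.61 without the 2 libraries farthest from the MALAT1 median. MALAT1 with KCNQ1OT1 gave r = 0.66 and rho = 0.66 (permutation p = 0.021 and 0.024, adjusted 0.11 and 0.079), r = 0.52 without the 2 farthest libraries and r = 0.78 without weak-cloaked replicate 1. NEAT1 with KCNQ1OT1 gave r = 0.56 (permutation p = 0.06, adjusted 0.2), and r = 0.75 without weak-cloaked replicate 1. H19 with NORAD gave rho = -0.68 (permutation p = 0.019, adjusted 0.079) but r = -0.21 (permutation p = 0.53, adjusted 0.66). H19 with KCNQ1OT1, the pair that both rose with transfection, gave r = -0.02 and rho = -0.01 (permutation p = 0.96 and 0.98).

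The genes most like each RNA across all 15 libraries were taken from 11872 tested genes by Pearson r of log2 CPM, as a description that shares library, depth and group. The untransfected libraries entered that choice, so calls of genes alike to H19 or KCNQ1OT1 follow largely from it and are no separate support. For H19 they were QSOX1 (r = 0.972), RHOF, SERINC2, ITGB4 and GAL3ST1, all called higher in transfected cells, and 4 of the 5 had a GC content of 61.1% to 63.7%, near the 63.4% of H19. For KCNQ1OT1 they included HBP1 (0.975), UHRF2, ZBTB43 and TMEM167B, these 4 called higher, and r stayed at 0.94 to 0.961 over the 12 transfected libraries alone. For MALAT1 they were LARP1B (0.939), STX3, the speckle protein gene SF3B1, RSBN1 and COQ10B. For NORAD they were ZKSCAN1 (0.966), BMPR2, ZNF106, RAP2A and ANO6, with transcripts of 5487 to 11461 nt. For NEAT1 they were HMGB3 (0.846), ZNF853, POMK, ERGIC2 and EEF1A1P5, and the first 2 had r = 0.287 and -0.0138 over the 12 transfected libraries alone.

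Of 4 further neighbouring genes, 1 was called. FRMD8, 9249 nt from NEAT1, fell in transfected cells (log2 fold change -0.67 ± 0.14 SE, edgeR adjusted p = 0.0063). LINC01219, beside H19, stood at -0.35 ± 0.48 (0.65), and CNBD2 and EPB41L1, on either side of NORAD, at 1.81 ± 1.01 and 0.36 ± 0.54 (0.22 and 0.68).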

How the data were processed

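The 57128519 to 78548789 gene counts per library of 15 HepG2 libraries were used as the authors deposited them, 1 whole-number count per gene symbol and library. Per the labels' protocols, RNA with an integrity number of at least 7.0 was poly(A)-selected, made into strand-specific libraries and read as 150 bp paired ends. HISAT2, HTSeq and GRCh38 are named in the submitters' processing notes, as are DESeq2 1.46.0 and R 4.4.2. The sources used here give neither the annotation release nor the strand setting of the counting.

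All 15 libraries were fitted together in edgeR 4.0.16 (R 4.3.3) by the quasi-likelihood test with TMM scaling, 1 mean per group, default expression filter and robust estimation. p-values were adjusted by the Benjamini-Hochberg method over 18380 genes, and genes below 0.05 were called. CPM values are TMM-scaled. GENCODE 29, matched by symbol, supplied positions, transcript lengths and GC. Replicates differed by more than sampling noise in every group. The labels call them biological replicates, and with 3 per group precision rests on their spread. Named genes were the 5 RNAs, up to 4 called genes of smallest p per list, all tested 11p15 genes, nearest neighbours, overlapping genes and the 5 most alike genes; a few genes that this rule names are not reported here. The RNAs and lists were chosen with earlier results of these data known. The test was checked on simulated counts. The alternatives included DESeq2 1.42.0, other scalings and filters, length and GC offsets, a replicate block and leaving out each library.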

Additional observations from a re-analysis of the deposited data

How the results depend on the processing

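The pooled rise of H19 (0.59 to 0.96 on the log2 scale) and of KCNQ1OT1 (0.79 to 1.39) in transfected cells was called under all 24 alternatives for each. With length and GC offsets MALAT1 was called as well, at 1.03, and at 1.04 with the replicate block added. No pairing by replicate number was detected across genes. Same-numbered libraries deviated together with r between -0.06 and 0.17 (median 0), over 0.1 in 2 of 30 pairs. For libraries of different number r was -0.14 to 0.11 (median 0), over 0.1 in 1 of 60. These values do not show whether single genes were paired. With the replicate block the pooled values were 1.04 for KCNQ1OT1, 0.83 for H19, 0.70 for MALAT1, 0.47 for NEAT1 and -0.39 for NORAD, and the called count 4304 against 4242. The block also brought KCNQ1OT1 with weak-cloaked mRNA past the threshold (0.96, edgeR adjusted p = 0.042). Of 1245 values of the 5 RNAs under alternatives, 1181 kept direction and side of the threshold, 18 lost a call, 18 gained one and 28 changed sign, none of these 28 called. The cause was not tested for any of them.

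Leaving out 1 library gave -0.24 to 1.17 for NEAT1 in transfected against untransfected cells, -0.76 to 0.65 with non-cloaked, -0.11 to 1.30 with weak-cloaked and -0.16 to 1.25 with strong-cloaked mRNA. It gave -0.29 to 0.33 for MALAT1 with non-cloaked and -0.40 to 0.12 for NORAD with medium-cloaked against untransfected cells. Against non-cloaked mRNA it gave -0.10 to 0.05 for H19 (medium-cloaked), and for NORAD -0.07 to 0.49 (weak-cloaked), -0.13 to 0.43 (strong-cloaked) and -0.05 to 0.51 (cloaked mean). For strong- against weak-cloaked mRNA it gave -0.36 to 0.20 for NEAT1, -0.19 to 0.11 for NORAD, -0.29 to 0.74 for MALAT1 and 0.00 to 0.44 for KCNQ1OT1. Total-count scaling gave -0.15 for MALAT1 with non-cloaked mRNA. Length and GC offsets, alone and with the replicate block, gave 0.41 and 0.62 for NEAT1 with non-cloaked and 0.01 in both for NORAD with medium-cloaked against untransfected cells, 0.17 in both for H19 with medium-cloaked against non-cloaked mRNA, and 0.16 and 0.18 for NEAT1 and 0.07 in both for NORAD with strong- against weak-cloaked mRNA.

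Counts of called genes over the whole table moved more. Leaving out 1 library gave 2148 to 5938 genes for the pooled comparison (4242 as reported), 119 to 3107 with non-cloaked (1195), 114 to 4007 with weak-cloaked (605), 785 to 3789 with medium-cloaked (2524) and 728 to 4191 with strong-cloaked mRNA (2776), each upper value without weak-cloaked replicate 1. DESeq2 called 2907 with non-cloaked and 1913 with weak-cloaked mRNA, a fit of only the weak-cloaked and untransfected groups gave 4, and length and GC offsets gave 1234 and, with the replicate block, 1558. Among transfected groups edgeR called 0 or 1 gene per comparison as reported and 0 to 4 under its other settings, and DESeq2 11 to 68. With 182 to 685 counts per library KCNQ1OT1 was the shallowest of the 5, and 3 libraries per group limit every comparison.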
